A study of Homo sapiens with 8 samples.

Results

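The 10 genes described here act when a licensed origin of replication is fired. They are TICRR, MTBP, TOPBP1, RECQL4, DBF4, CDC45, GINS1, GINS2, GINS3, and GINS4, and they were chosen by name, 10 of the 60230 genes in the deposited table. All 10 were above the filter on low counts. They were measured by RNA sequencing in HepG2 cells, an established human hepatocellular carcinoma line, here a derivative that overexpresses the drug-metabolizing enzyme CYP3A4 and is kept under blasticidin selection. All 4 groups are this same derivative, so the controls carry the transgene too. CYP3A4 itself was at 198 and 207 CPM in the controls, 287 and 216 under compound 4, 371 and 421 under compound 5, and 170 and 171 under compound 6. It was higher under compound 5 than in DMSO (log2 0.97, edgeR adjusted p = 7.24e-04), compound 4 (0.66, adjusted p = 0.0148), and compound 6 (1.22, adjusted p = 0.00138), and its part in the results was not tested. Cells received compound 4, compound 5, compound 6, or 0.2% DMSO as the solvent control for 24 h, with 2 replicates in each group and 8 libraries in all. The compounds are phenolic antioxidants used in plastics, and each was given at its own IC50 for growth of these cells, so the concentrations differ between compounds. Compounds 4 and 6 both have a pair of methylphenol rings joined by a methylene bridge and differ in the group beside the hydroxyl, which is tert-butyl in compound 4 and cyclohexyl in compound 6. Compound 5 has tert-butyl groups in place of the ring methyls and a bridge that itself carries a methyl group. In the labels the replicate number is written as a day, 1 or 2.

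Replication origins are licensed when the MCM2-7 helicase is loaded in an inactive form, and they are fired in S phase when that helicase is turned on. TICRR (also called treslin) and its partner MTBP bind TOPBP1 once cyclin-dependent kinase has phosphorylated TICRR, DBF4 activates the kinase CDC7 that phosphorylates MCM2-7, and RECQL4 takes part in the same step. CDC45 and the GINS complex, made of GINS1 to GINS4, then join MCM2-7 to form the active CMG helicase that unwinds DNA at the fork. Most of these transcripts are known to be high in proliferating cells and low in resting liver.

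The libraries held between 9472261 and 13308975 counts, so that 3 counts, the floor used for counting error alone, corresponded to 0.225 to 0.317 CPM. Counts of the 10 genes ranged from 48 (MTBP, compound 4 replicate 1) to 911 (RECQL4, DMSO replicate 2). Values are CPM, counts scaled to the library total after TMM scaling (a correction for library composition), unless said otherwise. The 8 liver markers were expressed in every library, with ALB between 12600 and 18500 CPM. Of these 8, AFP and APOA1 fell under compounds 4 (-0.63 and -0.66) and 5 (-0.68 and -0.78), APOA1 fell under compound 6 (-0.74), and TTR rose under compound 4 (0.66). Mitochondrially encoded transcripts took 4.91% and 5.12% of the counts in the DMSO libraries and 5.31% to 6.21% in the 6 treated ones, and the part of either in the results was not tested. Of 8 markers of blood, fibroblast, and endothelial cells, PTPRC and DCN were at 0 everywhere and only CD68, a lysosomal protein also made outside macrophages, was above the filter. The summed level of these 8 markers, nearly all CD68, was 28 to 39.7 CPM with DMSO, 57.9 to 59.1 under compound 4, 36.5 to 40.4 under compound 5, and 49.2 to 52.2 under compound 6, and its part in the results was not tested.

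The promoters are shown because every one of the genes had a negative fold change with each compound. Entries of 300 bases, from 250 before to 50 after an annotated start, were found in RefSeq (GRCh38.p14) for 7 of the 10 genes, 10 entries in all. MTBP, GINS4, and RECQL4 had none. A core site of the E2F family, TTTNNCGC on either strand, was present in 4 of these 10 entries, those of 4 genes, and in 6.89% of all 35116 entries. In each of the 4 it was on the minus strand relative to the gene, from -5 to +3 in GINS3 and from -7 to +1 in TOPBP1, from +6 to +13 in GINS1, and from -31 to -24 in GINS2, counting the start as +1. The windows run from 100 bases before to 50 after the start, in the direction of the gene, with the core site in capitals. They lie at chr20:25407573-25407722 (plus strand, GINS1), chr16:85688905-85689054 (minus strand, GINS2), chr16:58392371-58392520 (plus strand, GINS3), and chr3:133661892-133662041 (minus strand, TOPBP1).
GINS1: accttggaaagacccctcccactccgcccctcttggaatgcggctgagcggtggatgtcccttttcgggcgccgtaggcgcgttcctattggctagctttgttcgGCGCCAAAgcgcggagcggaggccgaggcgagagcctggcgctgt
GINS2: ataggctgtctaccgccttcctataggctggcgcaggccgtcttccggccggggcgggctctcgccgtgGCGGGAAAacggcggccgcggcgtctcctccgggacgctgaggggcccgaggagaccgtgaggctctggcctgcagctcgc
GINS3: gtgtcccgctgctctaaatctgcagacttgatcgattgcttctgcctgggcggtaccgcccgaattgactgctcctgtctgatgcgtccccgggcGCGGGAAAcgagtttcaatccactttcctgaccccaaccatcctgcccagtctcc
TOPBP1: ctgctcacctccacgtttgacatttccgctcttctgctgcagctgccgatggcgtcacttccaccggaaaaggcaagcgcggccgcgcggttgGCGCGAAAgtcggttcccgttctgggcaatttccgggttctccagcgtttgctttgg

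The CHR element TTTGAA, a short sequence known from promoters of cell cycle genes, was present on the minus strand in 1 of the 10 entries, that of DBF4, from -3 to +3, and in 15.2% of all entries. The DBF4 window lies at chr7:87876393-87876542 (plus strand), with the element in capitals. The CCAAT box, searched on both strands, was present in 6 of the 10 entries, those of TICRR, CDC45, GINS1, and GINS2 (4 genes), and in 34.6% of all entries. TICRR held 5 of them within the entry at chr15:89575219-89575518 and CDC45 held 4 within the entry at chr22:19479670-19479969, both on the plus strand and shown whole with the boxes in capitals. The GC box GGGCGG, also searched on both strands, was in all 10 entries and in 45% of all entries. None of the other motifs searched overlapped an E2F core site. A match is a description of the letters and says nothing of which factor binds there.
DBF4: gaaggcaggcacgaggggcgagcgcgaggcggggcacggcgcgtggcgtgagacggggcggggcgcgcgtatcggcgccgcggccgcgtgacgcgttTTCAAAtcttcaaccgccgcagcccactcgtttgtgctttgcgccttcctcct
TICRR: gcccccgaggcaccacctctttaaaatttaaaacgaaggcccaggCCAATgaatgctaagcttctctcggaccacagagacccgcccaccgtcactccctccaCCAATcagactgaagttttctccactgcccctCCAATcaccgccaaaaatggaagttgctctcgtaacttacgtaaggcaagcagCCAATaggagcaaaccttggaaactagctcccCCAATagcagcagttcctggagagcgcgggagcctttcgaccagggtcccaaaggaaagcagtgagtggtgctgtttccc
CDC45: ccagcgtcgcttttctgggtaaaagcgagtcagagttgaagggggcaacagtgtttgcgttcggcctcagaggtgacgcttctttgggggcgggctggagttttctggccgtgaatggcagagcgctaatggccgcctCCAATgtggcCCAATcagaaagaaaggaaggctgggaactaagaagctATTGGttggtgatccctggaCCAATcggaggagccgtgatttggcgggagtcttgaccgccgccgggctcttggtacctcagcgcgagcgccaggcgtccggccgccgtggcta

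All 10 transcripts had a negative log2 fold change with each of the 3 compounds, and how many passed the test differed. Under compound 4, 7 of the 10 fell at a Benjamini-Hochberg adjusted p under 0.05 in the quasi-likelihood F-test of edgeR, where 5.42% of the 13404 genes tested fell. TICRR, MTBP, TOPBP1, DBF4, GINS1, GINS2, and GINS4 were the 7. Under compound 5, TICRR and all 4 GINS genes fell, 5 of the 10, against 14.2% of the genes tested. Under compound 6, TICRR was the 1 gene of the 10 that fell, against 1.6% of the genes tested. The median log2 fold change of the 10 was -0.66 under compound 4, -0.65 under compound 5, and -0.49 under compound 6, where the medians over all genes tested were 0.00, -0.03, and 0.00. The median under compound 6 was -0.80 without its replicate 1 and -0.30 without its replicate 2. At an unadjusted p under 0.05 the numbers of genes were 10, 6, and 8, where 13.2%, 21.5%, and 9.5% of the genes tested were lower at that threshold. DESeq2 called 7, 5, and 3 of the 10, where it called 5.31%, 10.4%, and 2.34% of the genes it tested as lower. The 3 comparisons share the same DMSO libraries and are not independent of each other.

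**Figure D1:**
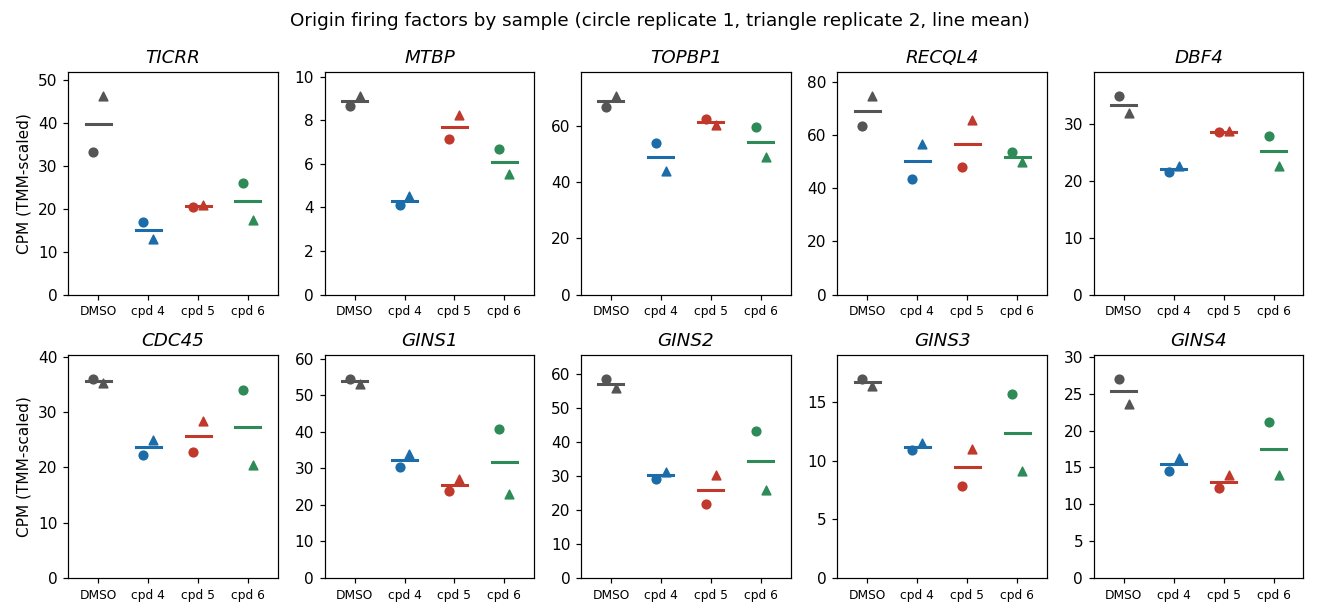
TMM-scaled CPM of the 10 origin firing factors in each library. Circles are replicate 1, triangles are replicate 2, and lines are the mean of the 2 replicates. The axes start at 0 and differ between panels. TICRR is at 33.2 and 46.4 CPM with DMSO and at 12.9 to 26.1 CPM in the 6 treated libraries.

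TICRR (ENSG00000140534, GRCh38 chr15:89575482-89631056, plus strand) is the factor that carries the phosphorylation signal of cyclin-dependent kinase to the helicase. It was at 33.2 and 46.4 CPM in the 2 DMSO libraries, 17.0 and 12.9 under compound 4, 20.5 and 21.0 under compound 5, and 26.1 and 17.4 under compound 6. Each treated library was below both DMSO libraries. The 2 DMSO libraries were further apart in CPM than the 2 of any compound. TICRR was 62.6% lower under compound 4 (log2 fold change -1.42, SE 0.22, edgeR adjusted p = 0.0029), 47.9% lower under compound 5 (-0.94, SE 0.21, adjusted p = 0.00906), and 45.8% lower under compound 6 (-0.88, SE 0.22, adjusted p = 0.0462). It was the 1 gene of the 10 that passed the edgeR test with all 3 compounds. DESeq2 called TICRR, GINS1, and GINS2 with all 3. The call under compound 4 held in each of the 8 fits that left out 1 library. Under compound 5 it was lost without DMSO replicate 2 or compound 5 replicate 1. The call under compound 6 is at the threshold, with an adjusted p of 0.0615 when the replicate number entered the fit as a block, and it was lost in 5 of the 8 fits that left out 1 library, those without either DMSO library, either compound 5 library, or compound 6 replicate 2. Exons of KIF7, on the opposite strand, cover 7.01% of the exon length of TICRR, and KIF7 held 58 to 130 counts per library.

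MTBP (ENSG00000172167, chr8:120445400-120542133, plus strand) encodes the binding partner of TICRR. It had the lowest counts of the 10, with 8.66 and 9.12 CPM with DMSO, 4.10 and 4.52 under compound 4, 7.15 and 8.24 under compound 5, and 6.67 and 5.52 under compound 6. Both compound 4 libraries were below every other library, and the compound 5 libraries came nearest to DMSO. MTBP was 51.4% lower under compound 4 (log2 fold change -1.04, SE 0.20, edgeR adjusted p = 0.00797), a call that was lost without DMSO replicate 2. Neither of the other compounds passed the test for MTBP, with -0.21 (95% interval -0.62 to 0.21) for compound 5 and -0.55 (-0.98 to -0.13, adjusted p = 0.135) for compound 6. The compound 5 value ran from -0.32 to -0.08 when 1 library was left out. Exons of SNTB1, on the opposite strand, cover 3.57% of the exon length of MTBP. SNTB1 held 1779 and 2329 counts with DMSO, 2500 and 2445 under compound 4, 3026 and 3591 under compound 5, and 1841 and 2668 under compound 6. Its part in the counts of MTBP was not tested.

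TOPBP1 (ENSG00000163781, chr3:133598175-133662380, minus strand) is the scaffold to which TICRR binds, and it also activates the checkpoint kinase ATR. Its levels were 67.0 and 70.9 CPM with DMSO, 54.0 and 44.0 under compound 4, 62.6 and 60.4 under compound 5, and 59.7 and 48.9 under compound 6. All 6 treated libraries were below the DMSO libraries, and those of compound 5 were the nearest to them. TOPBP1 was 29.1% lower under compound 4 (-0.50, SE 0.13, edgeR adjusted p = 0.0354). This call was lost in 5 of the 8 fits that left out 1 library, those without either DMSO library, either compound 5 library, or compound 4 replicate 2, and in the fit with only the groups compared (adjusted p = 0.057). Under compound 5 the log2 fold change was -0.17 (-0.46 to 0.12) and under compound 6 it was -0.35 (-0.64 to -0.05, adjusted p = 0.172). When 1 library was left out these ran from -0.21 to -0.10 and from -0.47 to -0.20.

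DBF4 (ENSG00000006634, chr7:87876216-87909541, plus strand), the activating subunit of the CDC7 kinase, was at 34.9 and 31.8 CPM with DMSO, 21.5 and 22.5 under compound 4, 28.5 and 28.7 under compound 5, and 27.8 and 22.6 under compound 6. The compound 4 libraries were again the lowest, and no treated library reached the DMSO level. DBF4 was 33.9% lower under compound 4 (-0.60, SE 0.13, edgeR adjusted p = 0.0165), a call lost without either DMSO library. Under compound 5 it was at -0.22 (-0.51 to 0.07) and under compound 6 at -0.40 (-0.70 to -0.11, adjusted p = 0.118). The compound 6 value was -0.25 without compound 6 replicate 2. DBF4 shares 23.76% of its 31-base words with other genes, mainly its pseudogene DBF4P1, which held 1 to 9 counts per library, so a small part of its reads could have been assigned to either. SLC25A40, on the opposite strand, covers 3.1% of its exon length and held 134 to 215 counts per library.

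RECQL4 (ENSG00000160957, chr8:144511288-144517845, minus strand) belongs to the RecQ family of helicases. It was at 63.6 and 74.9 CPM with DMSO, 43.4 and 56.9 under compound 4, 48.2 and 65.6 under compound 5, and 53.8 and 49.8 under compound 6. One library of compound 5 was above the lower DMSO library, the single case of overlap with DMSO among the 10 genes. RECQL4 did not pass the test with any compound when all libraries were used, with log2 fold changes of -0.46 (-0.84 to -0.09) for compound 4, -0.28 (-0.65 to 0.09) for compound 5, and -0.42 (-0.80 to -0.05) for compound 6, and adjusted p-values of 0.105, 0.231, and 0.197. Over the 8 fits that left out 1 library the values ran from -0.66 to -0.28 for compound 4 and from -0.52 to -0.05 for compound 5. It passed under compound 4 without compound 4 replicate 2, and under compounds 4 and 6 with no filter. On the opposite strand AC084125.4 covers 4.67% of its exon length and held at most 3 counts per library.

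CDC45 (ENSG00000093009, chr22:19479459-19520612, plus strand) is the first of the CMG subunits that join MCM2-7. It was at 36.0 and 35.3 CPM with DMSO, 22.2 and 25 under compound 4, 22.8 and 28.4 under compound 5, and 34.0 and 20.5 under compound 6. The groups did not overlap with DMSO, but the 2 compound 6 libraries lay apart, the first close to DMSO and the second the lowest of all 8. CDC45 did not pass the test with any compound when all libraries were used. Its log2 fold changes were -0.60 (-1.05 to -0.14, edgeR adjusted p = 0.0877) under compound 4, -0.47 (-0.93 to -0.02, adjusted p = 0.105) under compound 5, and -0.40 (-0.85 to 0.06, adjusted p = 0.316) under compound 6. The compound 5 value ran from -0.64 to -0.30 over the 8 fits that left out 1 library. The compound 6 value was -0.77 without its replicate 1 (adjusted p = 0.0333) and -0.06 without its replicate 2. CDC45 also passed under compounds 4 and 5 without either compound 6 library, with no filter, and with only the groups compared.

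The 4 GINS genes encode the subunits of 1 complex, and they were lowest under compound 5 or in the second compound 6 library. GINS1 (ENSG00000101003, chr20:25407727-25452628, plus strand) was at 54.4 and 53.1 CPM with DMSO, 30.2 and 34.0 under compound 4, 23.8 and 26.9 under compound 5, and 40.8 and 22.8 under compound 6. GINS2 (ENSG00000131153, chr16:85676198-85690073, minus strand) was at 58.4 and 55.7 CPM with DMSO, 29.1 and 31.2 under compound 4, 21.6 and 30.1 under compound 5, and 43.1 and 25.7 under compound 6. In both genes every treated library was below both DMSO libraries, and the 2 compound 6 libraries differed by more than those of any other group. GINS3 (ENSG00000181938, chr16:58295080-58406144, plus strand) was at 17.0 and 16.4 CPM with DMSO, 10.9 and 11.5 under compound 4, 7.88 and 11.0 under compound 5, and 15.7 and 9.14 under compound 6. GINS4 (ENSG00000147536, chr8:41529206-41545046, plus strand) was at 27.0 and 23.6 CPM with DMSO, 14.5 and 16.3 under compound 4, 12.2 and 13.9 under compound 5, and 21.1 and 13.9 under compound 6. In these 2 genes replicate 1 of compound 6 was the treated library nearest to DMSO. On the opposite strand AC009118.2 covers 10.9% of the exon length of GINS3 and held at most 10 counts per library. AC009630.2 covers 21.2% of that of GINS4 and held 0 counts, and AC009630.1 covers 2.39% and held at most 3.

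Under compound 5 all 4 GINS genes fell. GINS2 was 54.5% lower (-1.13, SE 0.22, edgeR adjusted p = 0.00387), GINS1 52.7% lower (-1.08, SE 0.21, adjusted p = 0.00451), GINS4 48.2% lower (-0.95, SE 0.19, adjusted p = 0.0049), and GINS3 43.3% lower (-0.82, SE 0.24, adjusted p = 0.0267). The calls of GINS1 and GINS2 held in each of the 8 fits that left out 1 library, that of GINS4 was lost without compound 5 replicate 1, and that of GINS3 without this library or without either DMSO library. Under compound 4, GINS2 (47.1% lower, adjusted p = 0.0197), GINS1 (40.3% lower, adjusted p = 0.0436), and GINS4 (39.0% lower, adjusted p = 0.0329) fell, and GINS3 did not pass (-0.57, adjusted p = 0.142). GINS3 passed under compound 4 with no filter and with only the groups compared. The GINS1 call under compound 4 was lost with the replicate block (adjusted p = 0.057) and in all of the 8 fits that left out 1 library except those without a compound 6 library. GINS2 lost its call under compound 4 without either DMSO library, and GINS4 without either DMSO library, compound 4 replicate 1, or compound 5 replicate 1. Under compound 6 none of the 4 passed in edgeR with all libraries and the filter on low counts, while DESeq2 called GINS1 (adjusted p = 0.0145) and GINS2 (adjusted p = 0.0217). The edgeR values were log2 fold changes of -0.77 (-1.24 to -0.30) for GINS1, -0.74 (-1.21 to -0.27) for GINS2, -0.54 (-0.96 to -0.12) for GINS4, and -0.44 (-0.96 to 0.07) for GINS3. With no filter edgeR called GINS1, GINS2, and GINS4, and without either compound 4 library it called GINS1 and GINS2. Without compound 6 replicate 1 all 4 were called, at -1.21 (GINS1), -1.12 (GINS2), -0.83 (GINS4), and -0.84 (GINS3). Without compound 6 replicate 2 none was, at -0.39, -0.40, -0.25, and -0.08.

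**Figure D2:**
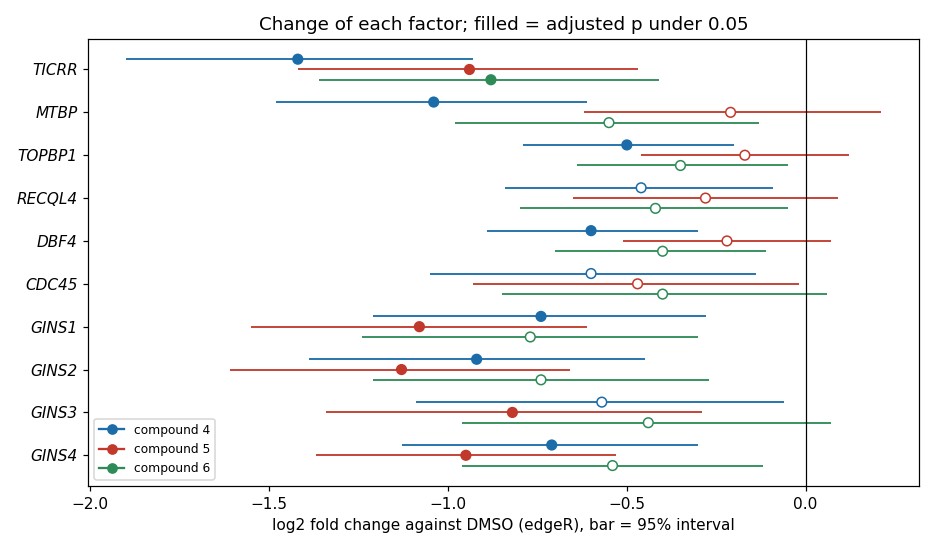
log2 fold change of each origin firing factor against DMSO, from edgeR. Bars are 95% intervals, filled circles passed an adjusted p of 0.05, and open circles did not. Every point is below 0, and the lowest is TICRR under compound 4 at -1.42.

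The number of genes called rested on single libraries. Under compound 4, 7 genes were called with all libraries, 2 without DMSO replicate 1, 1 without DMSO replicate 2, and 4 without compound 5 replicate 1. Under compound 5, 5 were called with all libraries, 3 without DMSO replicate 2, and 2 without compound 5 replicate 1. Under compound 6 the count was 1 with all libraries, 0 without either DMSO library, either compound 5 library, or compound 6 replicate 2, 3 without either compound 4 library, and 6 without compound 6 replicate 1. The share of the genes tested that fell in the same fits was 2.13%, 1.06%, and 4.1% for compound 4 and 6.7% and 5.25% for compound 5. For compound 6 it was 0.142% and 0% without DMSO replicates 1 and 2, 0.791% and 0.925% without compound 5 replicates 1 and 2, 0.0671% without compound 6 replicate 2, 3.37% and 3.05% without compound 4 replicates 1 and 2, and 2.83% without compound 6 replicate 1. With the block the count for compound 6 was 0 and those for compounds 4 and 5 were 6 and 5, where 1.34%, 5.17%, and 13.9% of the genes tested fell. The direction was below 0 for all 10 genes and 3 compounds in every one of these fits. Both libraries of the compound were below both DMSO libraries for 10, 9, and 10 of the genes under compounds 4, 5, and 6, where this was so for 27.1%, 37.3%, and 26.6% of the genes tested.

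Levels can be ranked between the 10 genes only per length, here as CPM per kb of exon. The length counts every annotated exon of a gene, expressed or not, so the order depends on the annotation. With DMSO the order of mean levels was GINS2 (17.5 CPM per kb), RECQL4 (16.3), GINS1 (13.2), CDC45 (12.5), TOPBP1 (9.45), DBF4 (7.27), TICRR (4.73), GINS4 (4.62), GINS3 (3.28), and MTBP (1.07). GINS2 and RECQL4 overlapped, as did TICRR and GINS4, and the other neighbours were apart in both replicates. Under compound 4, RECQL4 (11.8 CPM per kb) was above GINS2 (9.23), and TICRR (1.78) was below GINS3 (2.20), in both cases without overlap. Under compound 5, RECQL4 (13.4 CPM per kb) came first, and GINS2 (7.93) came after CDC45 (9.0) and TOPBP1 (8.42), with overlap between these neighbours. Under compound 6 most neighbours overlapped. MTBP was the lowest in all 4 groups.

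**Figure D3:**
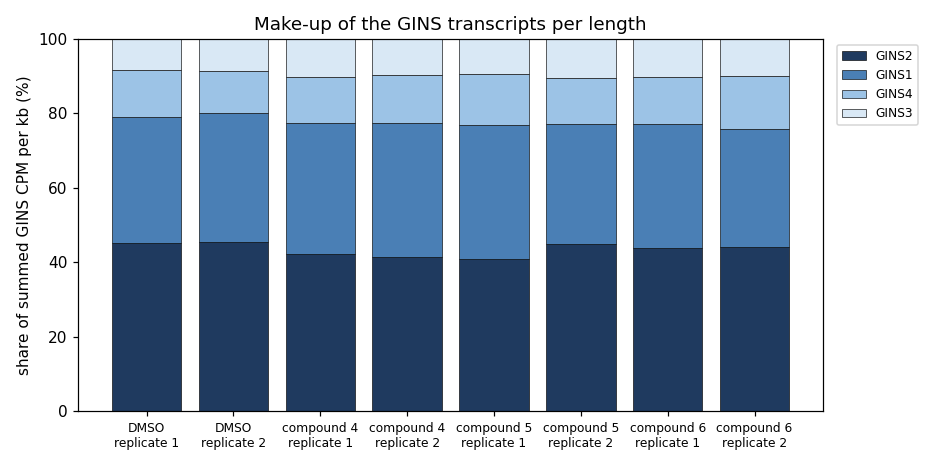
Share of each GINS subunit in the summed CPM per kb of the 4 GINS genes, as stacked bars for each library. GINS2 takes 40.8% to 45.3% and GINS3 8.44% to 10.5% in the 8 libraries.

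Within the GINS genes the shares of the summed CPM per kb stayed within a few percentage points. GINS2 took 45.2% and 45.3% with DMSO and 40.8% to 45.0% in the treated libraries, and GINS1 took 33.9% and 34.7% with DMSO and 31.5% to 36.1% in the treated ones. GINS3, the least abundant of the 4, took 8.44% and 8.55% with DMSO and 9.5% to 10.5% in the 6 treated libraries, and GINS4 took 12.5% and 11.4% against 12.4% to 14.3%. These shares are descriptions and were not tested.

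The compounds were then compared with each other directly, in 3 pairs and 30 tests of the 10 genes, with p-values adjusted over all genes tested and at concentrations that differ between the compounds. MTBP was the 1 gene that passed. It was higher under compound 5 than under compound 4 by 0.83 on the log2 scale (SE 0.20, 95% interval 0.40 to 1.27, edgeR adjusted p = 0.0244), with 7.15 and 8.24 CPM against 4.10 and 4.52, in a comparison in which 13.9% of the genes tested were called in either direction. The call was lost with DESeq2 (adjusted p = 0.0515), which called 0 of the 10 genes and 15% of its genes. It was also lost in a fit with only these groups and in the 4 fits that left out a library of compound 4 or 5. The difference stayed between 0.73 and 0.95 over the 8 fits that left out 1 library. At an unadjusted p under 0.05, 3 of the 10 passed by edgeR and 4 by DESeq2, where 32% and 24.8% of the genes tested did. TICRR (0.48, interval -0.02 to 0.97, adjusted p = 0.173), TOPBP1 (0.33, 0.03 to 0.62, adjusted p = 0.118), and DBF4 (0.38, 0.08 to 0.67, adjusted p = 0.0835) were also higher under compound 5 and did not pass. When 1 library was left out these ran from 0.30 to 0.69, from 0.20 to 0.48, and from 0.34 to 0.42. CDC45 (0.12, -0.34 to 0.58) and RECQL4 (0.18, -0.19 to 0.56) overlapped between these compounds, as did GINS2 and GINS3. The GINS genes had the opposite sign, with -0.34 (-0.82 to 0.14) for GINS1, -0.22 (-0.70 to 0.27) for GINS2, -0.25 (-0.78 to 0.29) for GINS3, and -0.24 (-0.67 to 0.20) for GINS4, and none of the 4 passed.

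**Figure D4:**
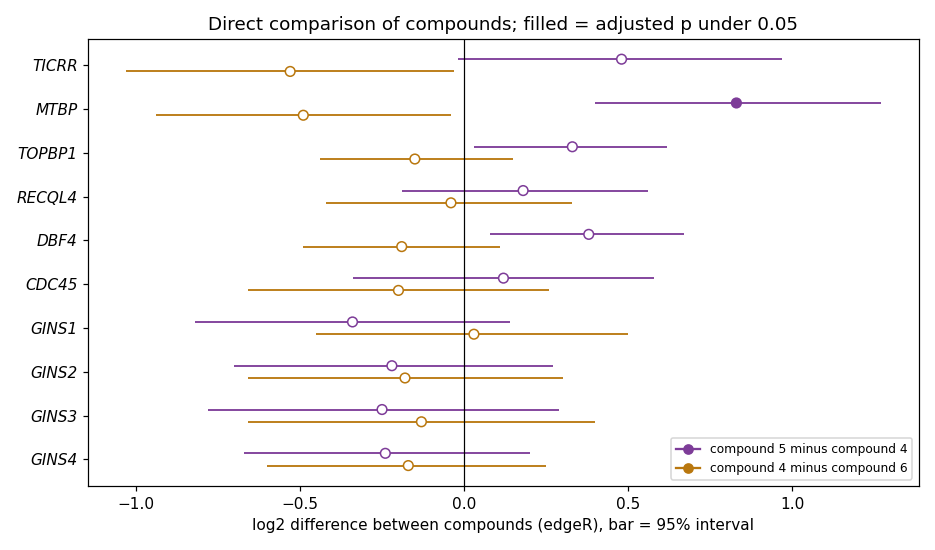
log2 difference of each origin firing factor between compounds, as compound 5 minus compound 4 and compound 4 minus compound 6. Bars are 95% intervals, the filled circle passed an adjusted p of 0.05, and open circles did not. MTBP, 0.83 higher under compound 5 than under compound 4, is the filled one.

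Compounds 4 and 6, which differ in the tert-butyl or cyclohexyl group beside the hydroxyl, gave no call among the 10 genes. TICRR (-0.53, 95% interval -1.03 to -0.03) and MTBP (-0.49, -0.94 to -0.04) were lower under compound 4 at an unadjusted p under 0.05, as 4.57% of the genes tested were, with edgeR adjusted p-values of 0.489 and 0.488, and DESeq2 called 0 with 1 gene at an unadjusted p under 0.05 (6.06% of its genes), where it called 0.537% of the genes it tested. Over the 8 fits that left out 1 library, TICRR ran from -0.81 to -0.24 and MTBP from -0.63 to -0.37. The intervals of the 10 genes ran from -1.03 to 0.50, and the absence of a call does not show that these compounds act alike. In this pair 0.0448% of the genes tested were called at all. Compounds 5 and 6, which differ in the ring groups and the bridge, also gave 0 calls, with 0 genes at an unadjusted p under 0.05 by edgeR or DESeq2, where 27.5% and 20.9% of the genes tested passed that threshold in either direction. Their differences ran from -0.41 for GINS4 to 0.35 for MTBP, with intervals from -0.91 to 0.77, where 9.91% of the genes tested were called by edgeR and 9.57% by DESeq2. Without compound 6 replicate 2, GINS1 and GINS2 were called between compounds 5 and 6, in a fit that called 7.58% of the genes tested.

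The genes that work with these factors were taken as a list of 40 in 7 classes. Under compound 4, 19 of the 40 fell, under compound 5 19 fell and 1 rose, and under compound 6 6 fell, with median log2 fold changes of -0.51, -0.43, and -0.44. In either direction 11.9%, 28.1%, and 4.4% of the genes tested were called. All 6 MCM2-7 genes fell under compounds 4 and 5, and MCM2 and MCM4 under compound 6. MCM4, a subunit of the helicase core, was at 261 and 277 CPM with DMSO, 160 and 160 under compound 4, 139 and 160 under compound 5, and 187 and 151 under compound 6 (-0.75, -0.85, and -0.67, edgeR adjusted p = 0.00363, 8.75e-04, and 0.0155). Of the 9 other partners in helicase activation, 4 fell under compound 4, 5 under compound 5, and 1 under compound 6. CCNA2, the cyclin of S phase and G2, fell with all 3 compounds (-1.22, -0.97, and -0.69). CDC7, the kinase that DBF4 activates, was at 9.35 and 8.63 CPM with DMSO, 7.52 and 6.24 under compound 4, 6.42 and 4.87 under compound 5, and 7.19 and 5.43 under compound 6. It fell under compound 5 (-0.68, SE 0.22, adjusted p = 0.0417) and did not pass under compound 4 (-0.39, -0.86 to 0.09) or compound 6 (-0.52, -1.0 to -0.03).

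Of 9 licensing genes, 3, 2, and 1 fell under compounds 4, 5, and 6, where 5.42%, 14.2%, and 1.6% of all genes tested fell. Classes this small are given as counts and were not tested as groups. GMNN, the inhibitor of licensing, fell with all 3 (-0.51, -0.90, and -0.64). In the leading strand polymerase 2, 2, and 0 of 4 genes fell, and POLE2 fell under compound 5 (-0.86, SE 0.22, edgeR adjusted p = 0.0162) and was at -0.47 and -0.43 under compounds 4 and 6. In fork protection 1, 3, and 1 of 4 fell, and CLSPN, which helps to activate the checkpoint kinase CHEK1, fell under compounds 5 (-0.88) and 6 (-0.78) and was at -0.58 under compound 4 (adjusted p = 0.069). Among 5 factors that oppose firing 2, 1, and 1 fell. CHEK1 fell with all 3 compounds (-0.89, -0.69, and -0.70), and PPP1CB, a catalytic subunit of protein phosphatase 1, rose under compound 5 (0.32, adjusted p = 0.0321). PPP1CC, another catalytic subunit of that phosphatase, fell under compound 4 (-0.31, adjusted p = 0.0498). RIF1, which brings that phosphatase to origins, was at 0.24 under compound 5 and at -0.41 under compound 4, neither of which passed, and it was higher under compound 5 than under compound 4 (0.65, SE 0.17, adjusted p = 0.0312). For helicase unloading 1, 0, and 0 of 3 genes fell, and TRAIP, a ubiquitin ligase that acts on the helicase, fell under compound 4 (-0.76, adjusted p = 0.0294). Counts of this list also moved with single libraries, to 2 without DMSO replicate 2 for compound 4, to 8 without DMSO replicate 2 or compound 5 replicate 1 for compound 5, and to 0 without either DMSO library or compound 6 replicate 2 and 17 without compound 6 replicate 1 for compound 6.

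Transcripts used as markers of cycling cells were also lower. They are not counts of cells in a phase, and by flow cytometry the authors reported a larger share of cells in G2/M with each compound. The share in S phase was reported as significantly lower with compound 4 and slightly lower with compounds 5 and 6. Of 15 S phase markers 12 fell under compound 4, 14 under compound 5, and 7 under compound 6 (median log2 fold changes -0.78, -0.77, and -0.63), and of 15 G2/M markers 15, 12, and 12 fell (-1.10, -0.70, and -0.73), where 5.42%, 14.2%, and 1.6% of all genes tested fell. The mean of the 10 genes in each library, as log2 CPM minus the DMSO mean, was -0.78 and -0.72 under compound 4, -0.74 and -0.52 under compound 5, and -0.30 and -0.82 under compound 6. The S phase markers were at -0.70 and -0.68, -0.83 and -0.70, and -0.35 and -0.87 in the same libraries, and the G2/M markers at -1.16 and -1.12, -0.77 and -0.66, and -0.54 and -0.91. Replicate 1 of compound 6 was thus the nearest to DMSO on all of these lists, and replicate 2 was lower on each. GMNN and CCNE2 are in both the S phase list and the list of 40. The part of the cell cycle in the levels of the 10 genes was not tested, and in these bulk samples fewer cells in S phase and less RNA per cell cannot be told apart.

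**Figure D5:**
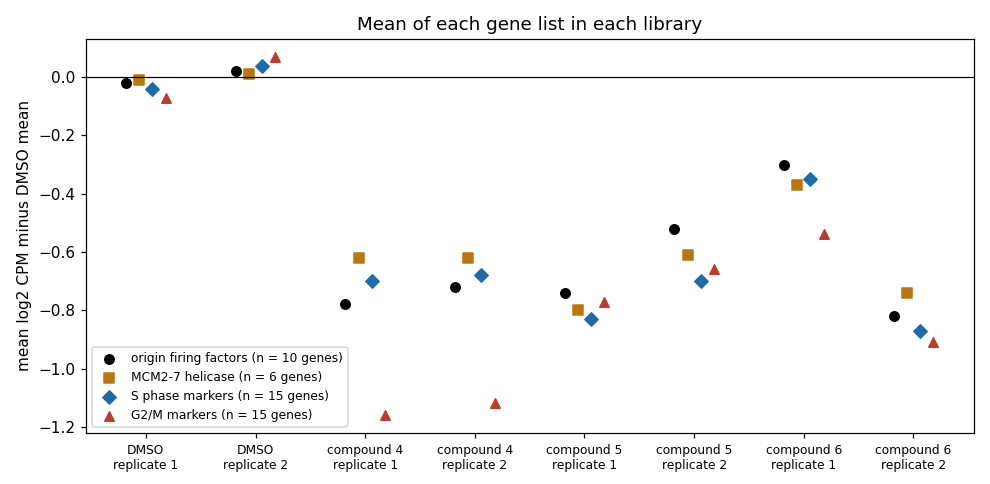
Mean log2 CPM minus the DMSO mean for the origin firing factors, the MCM2-7 genes, and the S phase and G2/M markers in each library. The origin firing factors are at -0.30 in replicate 1 and -0.82 in replicate 2 of compound 6, and the other lists are also lower in replicate 2.

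The genes whose profile over the 8 libraries was most like that of TICRR were found among 10529 genes of at least 5 CPM, by the root mean square difference of centred log2 CPM. They were ESPL1 (0.102), KIF11 (0.135), DLGAP5 (0.143), ANLN (0.148), and TOP2A (0.158), where the median gene was at 0.577. ESPL1 is the protease separase, KIF11 a motor of the mitotic spindle, DLGAP5 a spindle protein, ANLN a protein of the cleavage furrow, and TOP2A a topoisomerase that separates sister DNA. ESPL1 was at 64.5 and 77.9 CPM with DMSO, 31.6 and 26.3 under compound 4, 36.6 and 42.5 under compound 5, and 44.6 and 34.7 under compound 6. None of the other 9 origin firing factors was as near to TICRR, with distances from 0.314 for MTBP to 0.422 for RECQL4. Nearest to the mean profile of the 10 genes were AURKA (0.0611), XRCC2 (0.0614), BORA (0.0625), RFC5 (0.0642), and RFC3 (0.0848), where the median gene was at 0.371. AURKA is a mitotic kinase and BORA its cofactor, XRCC2 acts in homologous recombination, and RFC3 and RFC5 belong to the clamp loader. Among the 10 themselves, each compared with a mean that includes it, CDC45 was the nearest (0.0897) and TICRR the farthest (0.283). These distances are not scaled by the size of a gene's change. KIF11, TOP2A, and AURKA are also in the list of G2/M markers.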

How the data were processed

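RNA was sequenced from strand-specific libraries of 8 samples in 4 groups. The authors quantified reads with Salmon 1.5.0 on an index of GENCODE 38 (GRCh38), summed them to genes with tximeta, and deposited expected counts, estimated counts as whole numbers that were not scaled. The strand setting of Salmon is not given in the sources used here. By the labels, replicate 1 of compounds 4 and 5 was each merged from 2 parts with S numbers. What these parts were is not stated, and the part of the merging in the results was not tested. Symbols matched 60089 of 60230 identifiers, and coordinates and exon lengths came from GENCODE 29.

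Counts were fitted in R 4.3.3 with edgeR 4.0.16, with TMM scaling, filterByExpr (13404 genes kept), and a quasi-likelihood F-test (two-sided) over all 8 samples. Benjamini-Hochberg adjustment covered all genes tested, and the cutoff was 0.05. The SE is the fold change divided by the root of F. Depth was 9472261 to 13308975 counts per library, and the floor of 3 counts covers counting error only. Nothing states that replicates were separate cultures, so p-values measure the spread between these samples, which may be technical. Replicates differed by more than counting noise (chi-square per degree of freedom from 5.51 with DMSO to 17.2 under compound 4), and none was a duplicate. Whether this spread goes with transcript length was not tested. The labels give the number as a day, and correlations of same-numbered deviations between groups were -0.083 to 0.160, with 1 pair of groups over 0.1.

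The alternatives were DESeq2 1.42.0, RLE, upper-quartile, and library-size scaling, the replicate block, only the groups compared, a filter of 10 counts in every sample, no filter beyond a single count over all samples, and 8 fits that each left out 1 library. Where a group was left with 1 library, it was assumed to vary like the others. The procedure was tested on simulated data. The genes named are the 10 factors, the gene with the largest change against DMSO in each of 7 classes, CDC7, and the 5 genes nearest to TICRR and to the mean of the 10. RIF1, PPP1CB, PPP1CC, and MCM2 were named after their values were seen, as were the single markers of liver and other cell types. CYP3A4 was named as the transgene. The genes and lists were chosen with earlier results of these data known.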

Additional observations from a re-analysis of the deposited data

How the results depend on the processing

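Over the settings other than leaving out a library, 224 of 240 values of the 10 genes against DMSO kept their direction and side of the threshold, 3 lost the call, 13 gained it, and 0 reversed, and between compounds 237 of 240 were kept, 2 lost and 1 gained the call, and 0 reversed. With compound 6 the number of the 10 genes called, 1, was 3 with DESeq2, 5 with no filter, and 0 with the replicate block, in fits where 2.34%, 2.61%, and 1.34% of the genes tested fell. The number called between compounds 5 and 4, 1, was 0 with DESeq2, 2 with no filter, and 0 with only the groups compared, where 15%, 12.4%, and 6.48% of the genes tested were called. Of the 40 other replication genes, 6 with compound 6, the number was 10 with DESeq2, 17 with no filter, and 11 with only the groups compared. The block changed no other count by over 1.5 times, and the cause of these shifts was not tested. Leaving out 1 library gave 1 to 8 of the 10 genes called with compound 4, 2 to 6 with compound 5, 0 to 6 with compound 6, 0 to 1 between compounds 5 and 4, and 0 to 2 between compounds 5 and 6. The fits with the highest counts against DMSO called 5.6% and 5.65% (compound 4), 13.1% (compound 5, both fits), and 2.83% (compound 6) of the genes tested as lower, and those with the lowest 1.06%, 5.25%, and 0% to 0.925%. Of the 40 other replication genes it gave 2 to 23, 8 to 21, and 0 to 17. No gene of the 10 reversed against DMSO. Between compounds 17 values that had not passed did. Over these 8 fits the values for compound 5 against 4 ran from -0.05 to 0.29 (CDC45), -0.48 to 0.02 (GINS2), and -0.06 to 0.40 (RECQL4). For compound 5 against 6 they ran from -0.31 to 0.25 (TICRR), -0.39 to 0.32 (CDC45), -0.67 to 0.15 (GINS1), -0.71 to 0.01 (GINS2), -0.71 to 0.05 (GINS3), and -0.10 to 0.35 (RECQL4). For compound 4 against 6 they ran from -0.53 to 0.18 (CDC45), -0.35 to 0.47 (GINS1), -0.52 to 0.21 (GINS2), -0.49 to 0.28 (GINS3), -0.45 to 0.12 (GINS4), and -0.26 to 0.14 (RECQL4). Upper-quartile and library-size scaling put the median of all genes with compound 5 at -0.12 and -0.14 (-0.03 with TMM), where the 10 genes had medians of -0.73 and -0.75. With 2 replicates a group, a missed call does not show that a gene was unchanged.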
